A study of Oryza sativa with 8 samples.

Results

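Glutamine synthetase joins ammonium to glutamate and so makes glutamine, the first organic form of the nitrogen that a root takes up as ammonium. Glutamate synthase then passes the amide nitrogen of glutamine on, and the resulting glutamate serves the next round. Plants carry cytosolic isoforms, called GS1, and a plastid isoform, called GS2, which is best known in leaves, where it recaptures the ammonium released in photorespiration. In rice, GS1;1 is known as the broadly expressed cytosolic isoform, GS1;2 as the one of the outer root cells that assimilates absorbed ammonium, and GS1;3 as an isoform of the spikelet.

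The 4 rice loci that encode them were taken by their RAP locus identifier, which is the first part of the probe name in the array files: GS1;2 (Os03g0223400, chromosome 3), GS1;1 (Os02g0735200, chromosome 2), GS2 (Os04g0659100, chromosome 4) and GS1;3 (Os03g0712800, chromosome 3). They had 13 of the 42477 non-control probes of the array. In the same order they had 1, 6, 4 and 2 probes. Each probe name holds the cDNA clone from which the probe was designed, and all 13 name the coding sequence and the 3′ untranslated region as the region covered. Probes are called by that clone here. A RefSeq gene table places a gene with the same symbol on the same chromosome for all 4 loci. This check cannot tell the names GS1;2 and GS1;3 apart, because both loci are on chromosome 3.

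The samples were whole roots of rice seedlings of the cultivar Koshihikari, a japonica rice, which grew for 10 days with ammonium chloride as the stated treatment. The concentration was 1 mM for 4 biological replicates and 0.005 mM for the other 4. Each RNA sample was labelled with Cy3 and hybridised to 1 one-colour array. The labels give no other nitrogen source, and whole roots mix all root cell types, so a change in the share of a cell type and a change in RNA per cell cannot be told apart.

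The share of non-control spots marked as well above background ranged from 81.4% to 85.1%, and none was saturated. Correlations across probes were 0.993 to 0.997 between arrays of 1 group and 0.928 to 0.938 between arrays of the 2 groups. All 4 arrays at 1 mM were on one slide and all 4 at 0.005 mM on another, so the slide cannot be told apart from the ammonium supply here. Levels are log2 signals relative to the 75th percentile of the same array, and changes are 1 mM minus 0.005 mM with the SE of the limma fit. Probes marked as well above background on 4 or more of the 8 arrays were tested. Levels of different probes are not read as amounts of RNA, because probes differ in how well they bind.

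Of the 13 glutamine synthetase probes 12 were tested. At 1 mM ammonium 5 of them were higher and 6 were lower at an adjusted p under 0.05, and 1 did not pass. Over all 35950 probes tested, 33.8% were called higher and 43.1% lower, 76.9% in all, so a call by itself does not set these genes apart. The groups did not overlap for 10 of the 12 probes, against 72.2% of all probes. The direction differed between the genes. The single GS1;2 probe rose, all 6 GS1;1 probes fell, 3 of the 4 GS2 probes rose, and the tested GS1;3 probe rose by a small amount.

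**Figure D1:**
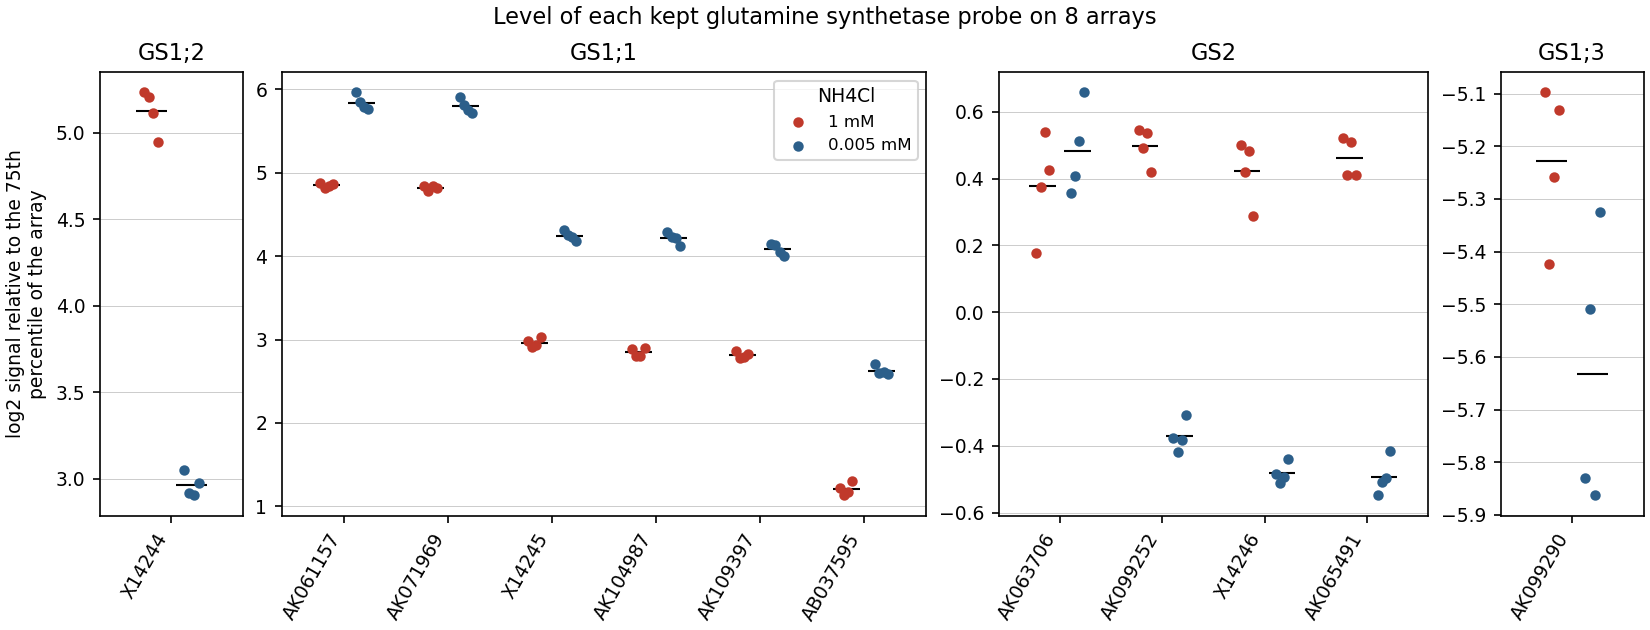
Log2 signal relative to the 75th percentile of the array (y axis, a separate scale for each gene) for each tested probe (x axis). Points are arrays, 4 at 1 mM on the left and 4 at 0.005 mM on the right of each probe, and black bars are group means. The points of the 2 groups are apart for 10 of the 12 probes and overlap for AK063706 and AK099290.

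GS1;2, the isoform of ammonium assimilation in roots, had the largest change of the 4 loci. The processed intensity of its probe X14244 was 136276, 124739, 110736 and 99259 on the 1 mM arrays, against 34738, 31535, 28793 and 31218 on the 0.005 mM arrays. After scaling, its levels were 5.23, 5.21, 5.11 and 4.94 at 1 mM and 3.05, 2.92, 2.90 and 2.98 at 0.005 mM. Every 1 mM array thus lay far above every 0.005 mM array, and the arrays of a group differed little among themselves. The means were 5.12 ± 0.13 at 1 mM and 2.96 ± 0.07 at 0.005 mM (SD, n = 4 each). The change was 2.16 ± 0.07, a 4.47-fold rise (limma adjusted p = 6.75e-08). Of all tested probes 3.38% rose by more. The gene has no second probe on the array by which the size could be checked.

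GS1;1, the broadly expressed cytosolic isoform, fell by all 6 of its probes. The intensity of its brightest probe, AK061157, was 106833, 95176, 91905 and 93826 at 1 mM and 261637, 241267, 212762 and 215905 at 0.005 mM. Its levels were 4.88, 4.82, 4.84 and 4.86 at 1 mM and 5.96, 5.85, 5.79 and 5.77 at 0.005 mM. The 1 mM arrays were thus all lower, and their spread was smaller than that of the 0.005 mM arrays. The change of this probe was -0.99 ± 0.05, so the signal at 1 mM was about 0.503 of that at 0.005 mM (limma adjusted p = 5.48e-07). The dimmest probe of the gene, AB037595, had levels of 1.22, 1.13, 1.17 and 1.30 at 1 mM and 2.70, 2.60, 2.61 and 2.58 at 0.005 mM. It changed by -1.42 ± 0.05, to 0.374 of the signal at 0.005 mM. Of all tested probes 8.07% fell by more than AK061157 and 3.97% by more than AB037595.

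The 6 probes fell by unequal amounts, least for the 2 probes of one transcript that the array files name. The 2 probes assigned to transcript Os02t0735200-01, AK061157 and AK071969, changed by -0.99 and -0.98. The 2 assigned to the cDNA AK109397 changed by -1.28 (X14245) and -1.27 (AK109397). The 2 assigned to transcript Os02t0735200-02 changed by -1.37 (AK104987) and -1.42 (AB037595). The order of the last 4 probes was not kept, since with quantile normalization they changed by -1.58 (X14245), -1.55 (AK109397), -1.66 (AK104987) and -1.56 (AB037595). Transcripts here are only the names in the files, and which exons a probe covers was not used.

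Ratios of 2 probes within an array do not depend on a constant scaling of that array, so they were used to compare probes of a gene. The log2 change minus that of AK061157 was -0.43 ± 0.04 for AB037595, -0.37 ± 0.03 for AK104987, -0.29 ± 0.03 for X14245 and -0.28 ± 0.02 for AK109397. Each of these 4 differences had a two-sided exact permutation p = 0.0286, the smallest that 4 against 4 arrays allow, and p = 0.0327 after Benjamini-Hochberg adjustment over the 8 probe pairs of the family. With quantile normalization the difference for AB037595 was -0.22, with an exact permutation p = 0.0571. For AK071969 it was 0.01 ± 0.01 (exact permutation p = 0.371). The 2 probes with the smaller fall were also the brightest, with mean intensities of 94766 to 232893, against 7743 to 76741 for the other 4. The array's saturation value was 778513 or more, and no spot of the 6 was marked as saturated. The part of brightness in the unequal falls was not tested.

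**Figure D2:**
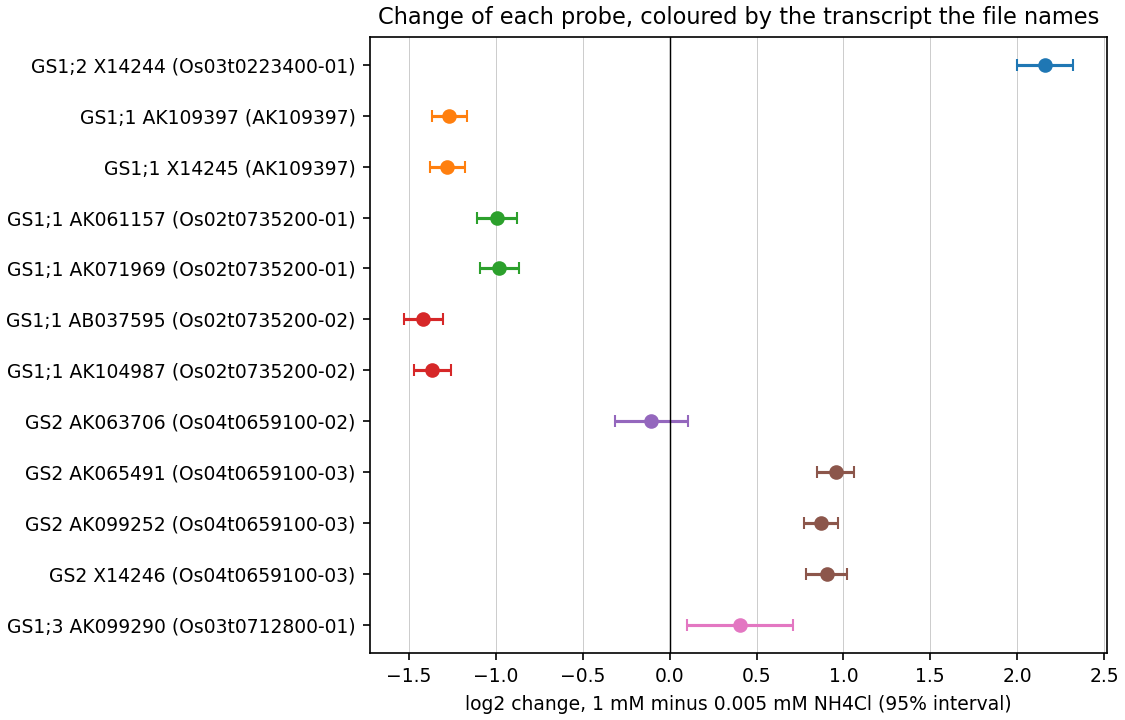
Log2 change of each tested probe, 1 mM minus 0.005 mM, with its 95% interval from limma (x axis). Each row is a probe, coloured by the transcript or cDNA that the array files name for it. Probe X14244 stands at 2.16, the 6 probes in the next rows between -1.42 and -0.98, the 3 GS2 probes of transcript Os04t0659100-03 between 0.87 and 0.96, and GS2 AK063706 at -0.10.

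GS2, the plastid isoform, was called differently by probes assigned to different transcripts. The 3 probes of transcript Os04t0659100-03 rose by almost the same amount. AK099252 had levels of 0.55, 0.49, 0.54 and 0.42 at 1 mM and -0.38, -0.42, -0.38 and -0.31 at 0.005 mM. Its intensity averaged 4751 at 1 mM and 3127 at 0.005 mM. The changes were 0.87 ± 0.04 for AK099252, 0.90 ± 0.05 for X14246 and 0.96 ± 0.05 for AK065491, rises of 1.83-fold to 1.94-fold. Their largest limma adjusted p was 1.2e-06, and for none of the 3 did the groups overlap.

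The fourth GS2 probe, AK063706, is assigned to transcript Os04t0659100-02. It stood for the locus by its mean level over all 8 arrays, although its level was the highest of the 4 at 0.005 mM only and the lowest at 1 mM (0.38, against 0.42 to 0.50 for the others). Its levels were 0.18, 0.37, 0.54 and 0.43 at 1 mM and 0.36, 0.41, 0.51 and 0.66 at 0.005 mM. The ranges of both groups overlapped. The value was -0.10 ± 0.09 (limma adjusted p = 0.322), with a 95% interval of -0.32 to 0.11. Within arrays, the changes of the other 3 probes exceeded that of AK063706 by 0.97 ± 0.10 for AK099252, 1.01 ± 0.11 for X14246 and 1.06 ± 0.10 for AK065491. For each of the 3 the two-sided exact permutation p was 0.0286 (0.0327 adjusted over the 8 probe pairs). A single value for the gene therefore depends on the probe. The probe with the highest mean over all arrays gave no call, and the mean of the 4 probes gave 0.66 (limma adjusted p = 4.2e-06).

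GS2 was read beside markers of green tissue, because the plastid isoform is mainly known from leaves. All 6 listed loci for the small subunit of Rubisco (RBCS) and for light-harvesting chlorophyll proteins (LHCB) were well above background on all 8 arrays. All 6 were called higher at 1 mM, with a median change of 1.56. Over all loci, by their brightest tested probe, 32.4% were called higher and 44.1% lower. The summed level of these 6 green tissue markers ranged from 7.68 to 7.93 at 1 mM and from 6.21 to 6.48 at 0.005 mM. The GS2 probes of transcript Os04t0659100-03 moved in the same direction as these markers and AK063706 did not. The part of green tissue or greening plastids in the GS2 values was not tested. Of the 3 root markers, all well above background on every array, 1 was higher and 2 were lower. RCc3 rose by 0.94 ± 0.07. The silicon transporter genes Lsi1 and Lsi2 changed by -0.77 ± 0.07 and -0.99 ± 0.07. The summed level of the 3 root markers was also higher at 1 mM, at 6.93 to 6.99 against 6.78 to 6.89 at 0.005 mM. Such a sum adds linear signals, so it follows the brightest probes and does not show a shared rise. Mean levels were 6.36 at 1 mM and 5.43 at 0.005 mM for RCc3, and 5.28 and 6.05 for Lsi1.

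GS1;3, the isoform known from the spikelet, was measured with a dim probe. Probe AK099290 had intensities of 106, 78.7, 83.7 and 92.0 at 1 mM and 73.7, 91.7, 66.1 and 99.1 at 0.005 mM, while the lowest intensity called well above background lay between 11.5 and 22.5 depending on the array. Its levels were -5.10, -5.42, -5.26 and -5.13 at 1 mM and -5.83, -5.51, -5.86 and -5.32 at 0.005 mM. The groups overlapped, with the lowest 1 mM array below the highest 0.005 mM array. The change was 0.40 ± 0.13, a 1.32-fold rise with a limma adjusted p of 0.022 and a 95% interval of 0.10 to 0.71. Larger rises were found in 23.9% of all tested probes. The call was lost without scaling between arrays (0.13, adjusted p = 0.405), with scaling to spike-in probes (0.02, adjusted p = 0.893) and when 1 of 4 arrays was left out, which were 1 mM replicates 1 and 4 and 0.005 mM replicates 1 and 3 (0.33 to 0.37). The second probe of the gene, AK063913, was well above background on no array by an accepted spot and was not tested.

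The 4 loci were set against each other by the ratio, within each array, of the probe with the highest mean level for each, which shows unequal change and not how much RNA each gene gave. GS1;2 gained on GS1;1 by 3.15 ± 0.08 on the log2 scale, which is an 8.90-fold shift of their ratio. It gained on GS2 by 2.27 ± 0.15 and on GS1;3 by 1.76 ± 0.18. GS1;1 lost against GS1;3 with a difference of -1.40 ± 0.17 and against GS2 with one of -0.89 ± 0.14. GS1;3 over GS2 differed by 0.51 ± 0.16. All 6 pairs had a two-sided exact permutation p = 0.0286, also after adjustment over the 6 pairs, and 0.0286 is the smallest p the design allows.

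The first 5 of these differences kept their direction whichever tested probe stood for GS1;1 or GS2, and with each array left out. GS1;2 over GS1;1 ranged from 3.10 to 3.58 over those probes and the normalizations run, and GS1;2 over GS2 from 1.21 to 2.27. GS1;3 over GS2 did not keep it. With AK099252, X14246 or AK065491 standing for GS2 it turned to -0.47, -0.50 and -0.55, each with exact permutation p = 0.0286. In these versions GS1;2 always had the highest change and GS1;1 the lowest, and the order of the others is not settled.

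**Figure D3:**
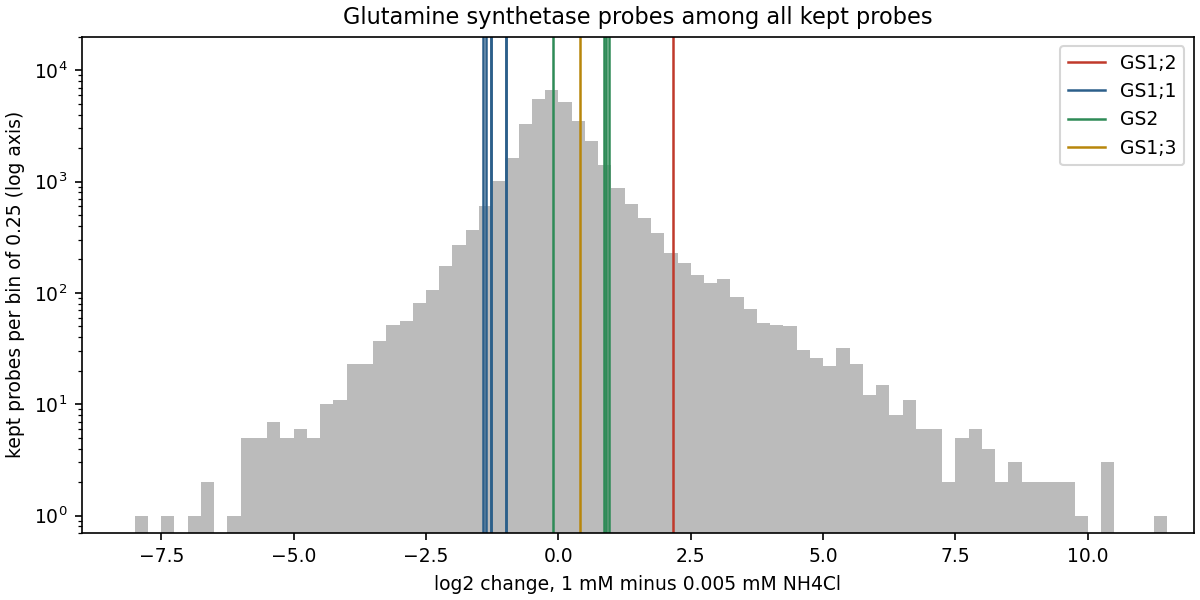
Number of tested probes in each bin of 0.25 of the log2 change, 1 mM minus 0.005 mM (x axis, y axis on a log scale), with the 12 glutamine synthetase probes as vertical lines. The line at 2.16 lies where 3.38% of probes rose by more, and the GS2 line at -0.10 lies near the median of all probes at -0.07.

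The direction of the changes of X14244, of the 6 probes that fell and of the 3 GS2 probes of transcript Os04t0659100-03 was kept under all 7 scalings and background corrections run. Without scaling the median change of all tested probes was -0.34, and with scaling to 7 spike-in probes it was -0.45, in place of -0.07. GS1;2 then changed by 1.89 and 1.78, GS1;1 (AK061157) by -1.26 and -1.37, and GS2 AK099252 by 0.60 and 0.49, all still past the threshold. GS2 AK063706 was called lower under both, at -0.37 and -0.49, which is -0.03 relative to the median of all probes in each case. Relative to the median of all probes, GS1;2 stood at 2.23 and GS1;1 at -0.92 with the main scaling, without scaling and with spike-in scaling alike, as these settings shift all probes of an array together. Quantile normalization, which does not, gave 1.97 and -1.24 relative to the median.

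**Figure D4:**
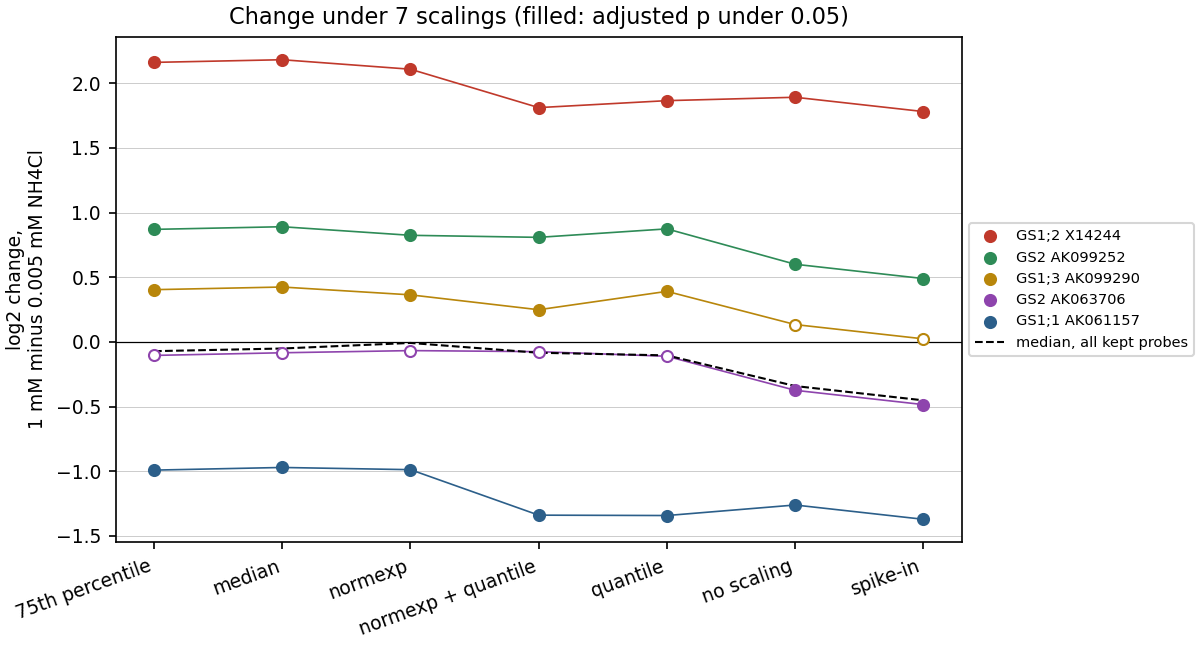
Log2 change of 5 probes, 1 mM minus 0.005 mM (y axis), under 7 ways of scaling or background correction (x axis), with the median of all tested probes as a dashed line. Filled points passed an adjusted p under 0.05. GS1;2 stays at 1.78 or above and GS1;1 at -0.97 or below, while GS1;3 ends at 0.02 and GS2 AK063706 follows the dashed line.

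The authors' deposited table lists spots with a q-value under 0.05. Its nitrogen sufficient condition was read here as the 1 mM group. It holds 64.9% of the non-control spots, 21.8% as higher and 43.1% as lower at 1 mM. The authors' deposited table lists 10 of the 13 glutamine synthetase spots, 4 as higher and 6 as lower. In the authors' deposited table GS1;2 has a log2 ratio of 2.03 (q = 2.07e-05), the GS1;1 probes have -1.55 to -1.12, and the 3 GS2 probes of transcript Os04t0659100-03 have 0.73 to 0.82. GS2 AK063706 and the probes of GS1;3 are not listed in the authors' deposited table. All 10 listed spots have the direction found here.

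The loci around glutamine synthetase in nitrogen metabolism were taken from lists written from general knowledge. For loci represented by their brightest tested probe, 32.4% of 24777 were called higher and 44.1% lower. Each listed locus, markers included, was read by that probe alone. Other probes of these loci were not compared, so a call may depend on the probe, as it did for GS2. Of the 3 glutamate synthase loci, whose products use the glutamine, 2 were higher and 1, the ferredoxin-dependent Fd-GOGAT, was lower at -0.48 ± 0.04. Both glutamate dehydrogenase loci rose, GDH2 by 3.31 ± 0.15 and GDH1 by 1.43 ± 0.04. Of the 2 asparagine synthetase loci, whose products move the amide nitrogen of glutamine to asparagine, 1 was higher and 1 lower.

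All 4 loci of nitrate and nitrite reduction, the route that makes ammonium from nitrate, were lower, with a median change of -2.56. Of the 9 ammonium transporter loci, which bring ammonium into the cell ahead of glutamine synthetase, 3 were higher and 6 lower, with a median of -0.85. The median over all loci was -0.09. Families with members in both directions were thus the glutamine synthetases, the glutamate synthases, the asparagine synthetases and the ammonium transporters.

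**Figure D5:**
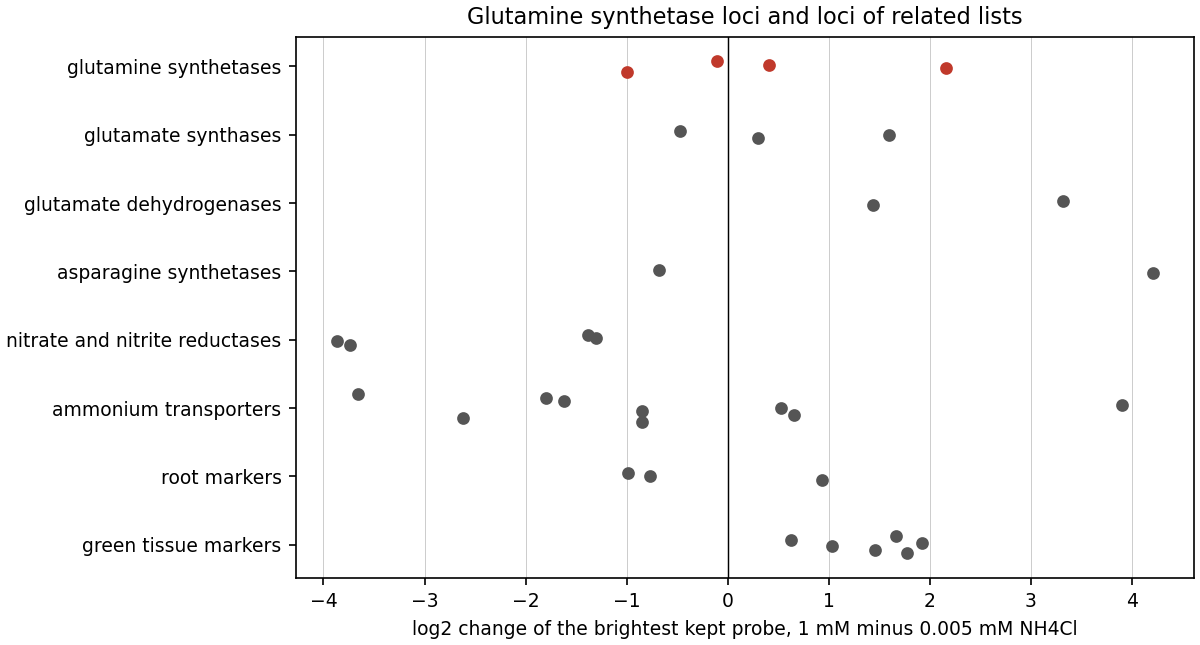
Log2 change of the brightest tested probe of each locus, 1 mM minus 0.005 mM (x axis), by list (rows). Each point is a locus, with the 4 glutamine synthetase loci in red at -0.99, -0.10, 0.40 and 2.16. GS2 is the point at -0.10, from AK063706, while its 3 probes of transcript Os04t0659100-03 changed by 0.87 to 0.96. The 4 nitrate and nitrite reductase loci lie below 0 and the 6 green tissue markers above 0.

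Among 23316 other loci well above background on all 8 arrays, those with the pattern most like that of GS1;2 were Os10g0100300 and Os05g0496200, with Pearson r of 0.9996 and 0.9993 over the 8 arrays. For GS1;1 they were Os12g0206700 and Os04g0610100, with r of 0.9992 each. Their changes were 1.75 ± 0.05 and 1.14 ± 0.05 for the first pair, and -0.63 ± 0.04 and -0.73 ± 0.04 for the second. The 8 arrays fall into the 2 ammonium groups, so a high r mostly restates the difference between them. An r over 0.99 was found for 796 loci in the first case and 753 in the second. These 4 loci are given by identifier only.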

How the data were processed

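Per the file headers, the arrays were read with Agilent Feature Extraction 10.10.1.1. Its processed signal, used here, is a background-corrected linear intensity, and its quality flags (other values, 0 or 1 per spot) are deposited with it. The authors' deposited table gives p-values, q-values and a log2 ratio per spot, and how it was made is not given in the sources used here. Its 8 columns of signals per array were not used, because the column names are not those of the samples.

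Outlier-flagged and control spots were dropped, log2 of the processed intensity was taken, and the 75th percentile of the array was subtracted. Every probe was a unit. The groups were compared two-sided with lmFit and eBayes of limma 3.58.1 (R 4.3.3). P-values were adjusted by Benjamini-Hochberg over all 35950 tested probes, with a threshold of 0.05. Ratios within arrays were tested by exact permutation over 70 assignments. In 92 tested probes, none of them glutamine synthetase probes, a flagged spot left at least 1 array without a value. The functions were tested on simulated data.

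Alternatives changed the scaling, background correction, filter, unit, flags, variance model and weights, added a replicate block or left out 1 array. Normexp (offset 50) was run on spot medians. Probe sequences were not used here. Of 29 listed loci, 18 had their symbol on the matching chromosome in the RefSeq gene table (assembly ASM3414082v1), and the other symbols were not in it. The members and lists were chosen with earlier results of these data known. All member probes are named, list members only where a sentence turns on them, and the like loci are the 2 with the highest r for each of 2 genes.

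Deviations from the group means were compared between replicates of the same number. Their correlations were 0.30, -0.01, 0.11 and 0.06, and the highest for unlike numbers was 0.10. The values for replicates 1 and 3 lay above that, so the check does not settle whether the numbers pair the samples. The main comparison did not treat them as pairs, and adding a replicate block changed no call of a glutamine synthetase probe. The number of arrays, 4 per group, limits the precision.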

Additional observations from a re-analysis of the deposited data

Results flagged for a closer look

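Of the 24 sets of 4 array values for the tested glutamine synthetase probes, 0 held an array whose gap to the others passed Dixon's critical value for 4 values. In data that entered no comparison, the spot of GS1;3 probe AK063913 had an intensity of 324 on the array of 1 mM replicate 1, where it carried an outlier flag, against 9.85 to 22.9 on the other 7 arrays, none of them well above background.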

How the results depend on the processing

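Of 28 values and counts, 23 were taken as the same under every alternative run. For a value, this means that it kept its direction and its side of the threshold. The counts of probes called were held to a looser rule, by which a change of 1 probe was still taken as the same. Probes called higher numbered 4 to 5 and probes called lower 6 to 7 over all alternatives, the 7 arising because GS2 AK063706 was called lower without scaling and with spike-in scaling. GS2 AK063706 was -0.37 (no scaling) and -0.49 (spike-in scaling), and the mean of the GS2 probes gave 0.66. GS1;3 was 0.13 (no scaling) and 0.023 (spike-ins). Leaving out 1 array gave it 0.33 to 0.51 (limma adjusted p 0.0051 to 0.058). GS1;3 over GS2 was 0.32 with normexp and quantile normalization (exact permutation p = 0.0571) and 0.40 to 0.57 without 1 array, with p up to 0.0857 without 0.005 mM replicate 3; it reversed to -0.55, -0.47 and -0.50 with GS2 by AK065491, AK099252 and X14246, an alternative chosen after seeing the data. AK071969 over AK061157, not called, was -0.0055 with normexp and quantile normalization. AB037595 over AK061157 was -0.22 with quantile normalization (exact permutation p = 0.0571). Without a filter, AK063913 had a value of 0.35 (limma adjusted p = 0.31). The causes were not tested. With the replicate block, GS1;2 was 2.16, GS1;1 -0.99, GS1;3 0.40 and GS2 -0.10, and the block changed no call. A slide block was not run, because each slide held 1 group. Without 1 array, GS1;2 ranged from 2.13 to 2.22 and GS1;1 from -1.02 to -0.95.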
